A study of Mus musculus with 2 samples.

Results

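The dual-specificity phosphatases (Dusp genes), the non-receptor tyrosine phosphatases (Ptpn genes) and the receptor tyrosine phosphatases (Ptpr genes) were examined for peaks of tagged PAX7 in mouse muscle stem cells. Members were the protein-coding genes of the RefSeq table for GRCm38 whose symbols begin with Dusp or Ptpn and a digit, or with Ptpr and a letter. This gave 62 of 21770 protein-coding genes, namely 24 Dusp, 17 Ptpn and 21 Ptpr genes. Ptprcap fits the symbol rule but encodes a protein associated with CD45 and not a phosphatase, whereas the rule left out Ptprv, listed as a transcribed pseudogene, and Ptprtos, listed as a long noncoding RNA. A gene was given a peak when the summit lay inside its span, or when its end was the nearest protein-coding gene end within 50 kb of the summit. By this rule 12 of the 62 genes (19.4%) had 13 peaks, and 50 genes had none. Of all protein-coding genes 2096 (9.63%) had a peak. The families were chosen with this peak list in view, so the shares are only a description.

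Chromatin immunoprecipitation with sequencing (ChIP-seq) had been done on untreated muscle stem cells sorted from C57BL/6 mice in which YFP, a yellow fluorescent protein, is knocked in at Pax7. There was 1 library precipitated by an anti-GFP antibody, raised against green fluorescent protein and also binding YFP, with 10622111 tags, and 1 library of input DNA from cells of the same genotype, with 20429667 tags. With 1 library in each group there was no replicate error and nothing could be tested between libraries. Cells without the tag were not analysed here, and both libraries carried the knock-in, so signal that the antibody gives without PAX7-YFP cannot be told apart from PAX7 binding. Each peak's pileup (ChIP fragments over the summit) and fold enrichment over the local background are the authors' values. After each fold stands its 95% interval, taken from the exact Poisson limits of the pileup at a constant background, and this covers counting error only.

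Most Dusp, Ptpn and Ptpr proteins remove phosphate from tyrosine, and many Dusp enzymes also from serine and threonine. The classical Dusp members are MAP kinase phosphatases: they switch off the kinases ERK, JNK and p38, and several of them are themselves induced by the kinases they silence. Ptpn enzymes act inside the cell on receptors and adaptors, and Ptpr enzymes are transmembrane proteins that read cell contacts and matrix ligands. Muscle stem cells rest in a quiescent state, and p38 and ERK signalling accompanies their activation. PAX7, a transcription factor with a paired domain and a homeodomain, marks these cells.

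The deposited list had 2977 peaks with a median fold of 7.35 (quartiles 6.27 and 8.82) and a median pileup of 15.0. Of the muscle stem cell marker genes 5 of 9 had a peak, with the strongest at Pax7 (14.7-fold, 9.92 to 21.0), and of the leukocyte marker genes, Ptprc among them, 0 of 7 did. Endothelial marker genes had a peak in 3 of 5 cases, namely Tek at 11.6-fold, Cdh5 at 8.33-fold and Pecam1 at 6.58-fold, and fibro-adipogenic marker genes in 1 of 4 (Col1a1 at 9.31-fold). By the same rule 9.63% of all protein-coding genes had a peak. A peak is not a measure of expression, so the sorted cell type was not checked by these counts.

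Promoter sequence was printed for the 5 members whose peak overlapped a window of the RefSeq promoter table (GRCm38.p6), because these are the members whose peak can be read in letters. The table held 50 of the 62 members. Each line runs 5′ to 3′ on the gene's strand and holds bases ahead of the listed start, and capitals mark the bases inside the deposited peak.
Dusp23: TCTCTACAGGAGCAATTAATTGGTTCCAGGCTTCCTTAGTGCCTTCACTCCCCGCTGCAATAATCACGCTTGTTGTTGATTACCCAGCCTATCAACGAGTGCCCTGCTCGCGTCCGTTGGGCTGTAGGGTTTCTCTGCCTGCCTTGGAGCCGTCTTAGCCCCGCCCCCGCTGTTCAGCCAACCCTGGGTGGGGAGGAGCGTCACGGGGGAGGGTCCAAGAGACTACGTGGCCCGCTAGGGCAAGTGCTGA
Dusp7: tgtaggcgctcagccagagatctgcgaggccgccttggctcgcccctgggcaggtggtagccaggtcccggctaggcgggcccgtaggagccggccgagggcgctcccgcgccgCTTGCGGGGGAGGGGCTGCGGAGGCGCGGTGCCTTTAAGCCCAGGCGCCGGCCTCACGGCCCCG
Dusp3: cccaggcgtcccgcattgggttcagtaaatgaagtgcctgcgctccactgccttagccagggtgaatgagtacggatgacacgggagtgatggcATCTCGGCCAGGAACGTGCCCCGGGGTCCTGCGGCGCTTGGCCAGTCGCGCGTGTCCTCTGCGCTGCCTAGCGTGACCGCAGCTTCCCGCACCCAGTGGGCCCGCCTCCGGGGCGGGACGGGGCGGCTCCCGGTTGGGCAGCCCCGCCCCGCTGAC
Dusp1: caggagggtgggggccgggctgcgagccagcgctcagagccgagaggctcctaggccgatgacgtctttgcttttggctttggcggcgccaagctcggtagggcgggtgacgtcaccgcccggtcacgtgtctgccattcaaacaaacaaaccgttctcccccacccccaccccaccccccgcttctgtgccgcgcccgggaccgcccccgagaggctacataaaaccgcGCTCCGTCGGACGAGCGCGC
Ptpn9: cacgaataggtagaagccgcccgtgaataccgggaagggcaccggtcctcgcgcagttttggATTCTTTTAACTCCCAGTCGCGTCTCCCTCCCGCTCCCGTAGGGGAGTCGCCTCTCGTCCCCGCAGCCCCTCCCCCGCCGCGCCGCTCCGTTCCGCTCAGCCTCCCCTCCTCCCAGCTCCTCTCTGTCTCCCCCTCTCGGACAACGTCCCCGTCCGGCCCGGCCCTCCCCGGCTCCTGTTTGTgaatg
The stretches are chr1:172632975-172633224 (minus strand, Dusp23), chr9:106368382-106368559 (plus, Dusp7), chr11:101984792-101985041 (minus, Dusp3), chr17:26508473-26508722 (minus, Dusp1) and chr9:56994718-56994967 (plus, Ptpn9). The Dusp7 line was ended 72 bases before its listed start, because the span of the gene begins there. The Dusp3 line lies inside the span of Dusp3, ahead of a listed start that is not the outermost end of the gene. All 250 printed bases of Dusp23 were inside the peak, and 183 of Ptpn9, 156 of Dusp3, 64 of Dusp7 and 20 of Dusp1.

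These promoters were rich in G and C: over the 250 bases before the start the content was 77.2% for Dusp7, 70.0% for Dusp3, 68.4% for Dusp1, 67.6% for Ptpn9 and 59.2% for Dusp23. The median over all 32851 windows of the table was 52.4% (quartiles 45.2 and 61.2), so Dusp23 alone stood inside the quartiles. Of 6 motifs searched on both strands in the 250 bases, TAAT, the core that homeodomains bind, had 4 matches at Dusp23 and 1 at Dusp7, all inside the peak. The Dusp23 matches began 236, 234, 190 and 172 bases before the start, and the first pair overlap each other. The Dusp7 match began 28 bases before the start, in the part not printed. TAAT stood in 54.9% of all windows. A palindrome in which TAAT is followed after 3 bases by ATTA, a form of homeodomain site, stood in 0.463% of them and in 0 of these 5. Palindromes with other spacing were not searched, so this count does not cover every palindromic homeodomain site. GTCAC, a core that paired domains bind, was found once at Dusp23 (51 bases before the start) and once at Dusp3 (84), inside the peak in each case, and at 39.8% of all windows. Dusp1 had 3 matches of GTCAC outside its peak, and 2 of them overlapped a TGACGTCA, the cAMP response element, 143 bases before the start (1.55% of all windows). The E-box CANNTG (66.2% of all windows) had 1 match each at Dusp23, Dusp7 and Dusp1. The Dusp23 match was inside the peak, and those of Dusp7 and Dusp1 were outside it. The AP-1 site TGANTCA (6.75%) had none in the 5. A match describes letters and is not evidence of binding.

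Dusp genes had a peak in 6 of 24 cases (25%), Ptpn genes in 3 of 17 (17.6%) and Ptpr genes in 3 of 21 (14.3%), where 9.63% of all protein-coding genes had a peak by the same rule. The families were chosen by the presence of peaks in this same list, so the shares are a description and nothing is read from their distance to the background. The spans of the families differ and the rule gives long genes more room. Median spans were 11.8 kb for Dusp, 59.1 kb for Ptpn and 151 kb for Ptpr genes, against 17.2 kb for all protein-coding genes. Among all genes the share with a peak was 4.60% for spans under 10 kb, 10.2% for 10 to 100 kb and 23.0% for over 100 kb. Of the Dusp genes 3 of 10 under 10 kb and 3 of 14 between 10 and 100 kb had a peak. Of the Ptpn genes 1 of 13 between 10 and 100 kb and 2 of 4 above had one. Every Ptpr gene with a peak was among the 15 that span over 100 kb (3 of 15). With only summits inside the span counted, 4 Dusp, 1 Ptpn and 2 Ptpr genes had a peak, beside 5.49% of all protein-coding genes. Per length of span, the Dusp genes held 4 peaks in 0.403 Mb (9.92 per Mb), the Ptpn genes 1 in 1.25 Mb (0.798 per Mb) and the Ptpr genes 3 in 7.88 Mb (0.381 per Mb), beside 1.44 per Mb over all protein-coding genes. The last value pools genes of every span. No density was computed for genes of similar span, so these values do not correct for the difference in span.

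**Figure D1:**
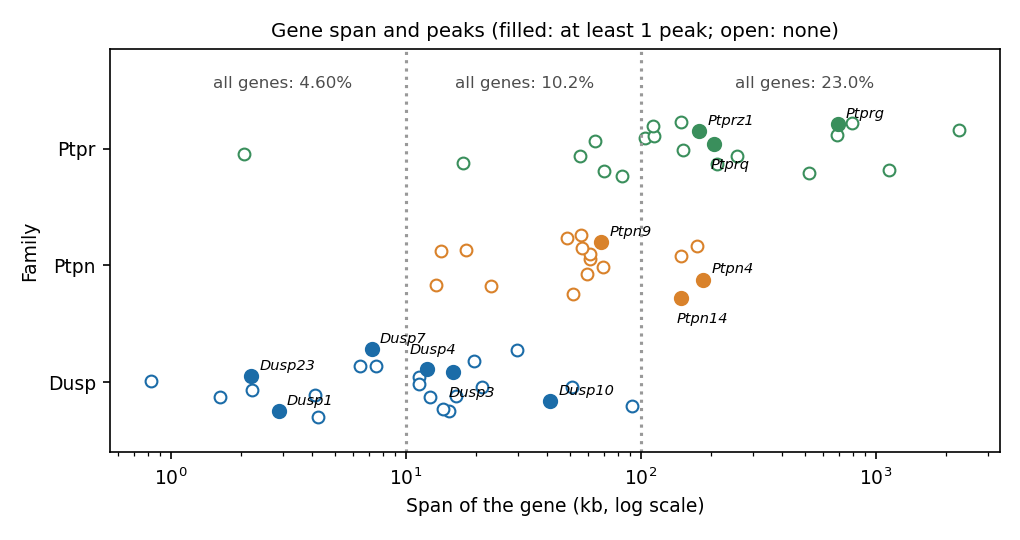
Span of each of the 62 genes (kb, log scale) by family, with filled points for genes with at least 1 peak and open points for genes with none; vertical spread within a row is only for legibility. Grey text gives the share of all protein-coding genes with a peak in each span class, from 4.60% under 10 kb to 23.0% over 100 kb, and the 3 filled Ptpr points all lie above 100 kb.

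The strongest peak of the 3 families stood at Dusp23, which encodes a small atypical dual-specificity phosphatase. It lay at chromosome 1, 172632957 to 172633348, with a pileup of 35 over a background of 0.977 fragments. This gave 18.2-fold (12.8 to 25.1) and place 13 among the 2977 peaks. A background of 0.977 is the genome-wide level that the caller uses where input around the peak is lower. The peaks of Dusp7, Dusp1 and Ptpn9 had it too, so these folds are over a floor and not over local input. The summit was 225 bp ahead of the Dusp23 start. It also fell within the span of the long noncoding RNA gene Gm35601 (172632980 to 172658377), and the next protein-coding end, that of Fcrl6, was 14877 bp away. Among the other 12 member peaks, the intervals of Dusp7, Dusp10 and Ptprz1 overlapped that of Dusp23. Dusp3, which encodes the atypical phosphatase VHR, had a peak at chromosome 11, 101984739 to 101984947, with a pileup of 15 over 1.04 and 7.84-fold (4.61 to 12.6). Its summit lay inside the gene, 2157 bp from the outer end but 65 bp ahead of the listed inner start. Of the 14 atypical Dusp genes these 2 had a peak (14.3%), beside 9.63% of all protein-coding genes.

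Among the MAP kinase phosphatases proper, 4 of 10 had a peak, beside the 9.63% of all protein-coding genes. Dusp7, an ERK phosphatase of the cytoplasm, had the strongest of these at chromosome 9, 106368496 to 106368688, with a pileup of 18 over 0.977 and 9.61-fold (5.90 to 14.9). Its summit was 14 bp inside the gene and 58 bp ahead of the listed start. The other two ERK phosphatases of the cytoplasm, Dusp6 and Dusp9, had none. Dusp10 encodes MKP-5, which acts on JNK and p38, and had a peak at chromosome 1, 184042092 to 184042398, inside the gene and 7820 bp after its start. The pileup was 18 over 1.04 and the fold 9.31 (5.72 to 14.4), close to that of Dusp7. Dusp8 and Dusp16, with the same substrates, had none.

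Of the nuclear, inducible MAP kinase phosphatases Dusp1 and Dusp4 had peaks and Dusp2 and Dusp5 did not. Dusp1 encodes MKP-1, a product of the immediate early response. Its peak at chromosome 17, 26508220 to 26508492, had a pileup of 12 over 0.977 and 6.58-fold (3.64 to 11.1), with the summit 117 bp after the start. Dusp4 encodes MKP-2 and had the weakest of the 13 peaks, at chromosome 8, 34804244 to 34804440, which is 3206 bp beyond the nearer end of the gene. With a pileup of 11 over 1.56 it reached 4.69-fold (2.54 to 8.08) and place 2899 of 2977. The folds of Dusp1 and Dusp4 were below the median of the list, while those of the other 4 Dusp genes were above it, although only the Dusp23 interval lay wholly above the median.

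**Figure D2:**
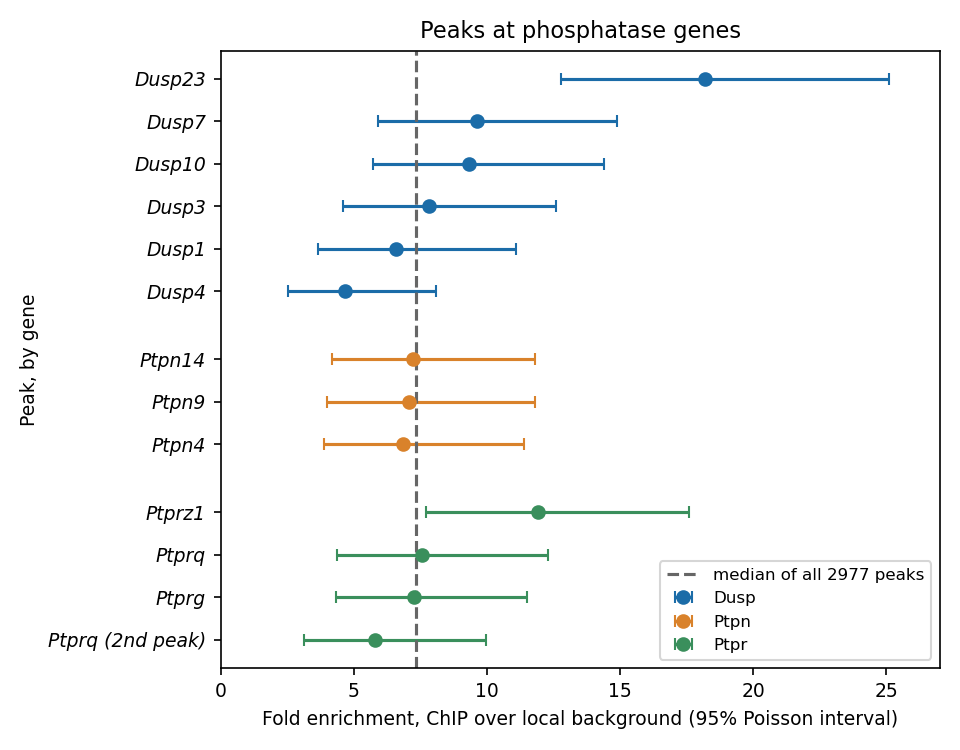
Fold enrichment (ChIP over local background) of the 13 member peaks by gene and family, with 95% exact Poisson intervals of the pileup and a dashed line at the median of all 2977 peaks. Dusp23 has the highest fold of the 13 at 18.2, with an interval that overlaps those of Ptprz1, Dusp7 and Dusp10, Ptprz1 follows at 11.9-fold, and the intervals of 11 peaks cross the median line.

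In the Ptpn family the 3 peaks were of nearly the same strength, between 6.86-fold and 7.24-fold, and all lay below the median of the list. Ptpn14 encodes a phosphatase with a FERM domain that restrains the Hippo effector YAP. Its peak at chromosome 1, 189716243 to 189716649, lay 11669 bp beyond the nearer end of the gene, with a pileup of 14 over 1.07 and 7.24-fold (4.17 to 11.8). Ptpn9 encodes MEG2, a phosphatase of secretory vesicles, and its peak at chromosome 9, 56994780 to 56994962, had the summit 122 bp ahead of the start. The pileup was 13 over 0.977 and the fold 7.08 (4.01 to 11.8). Ptpn4, another FERM domain member, had its peak inside the gene at chromosome 1, 119790803 to 119791021, 46183 bp after the nearest listed start. There the pileup was 13 over 1.04 and the fold 6.86 (3.88 to 11.4). Thus 2 of the 5 FERM domain genes had a peak, and Ptpn3, Ptpn13 and Ptpn21 had none. The median span of these 5 genes was 148 kb, and 23.0% of all genes over 100 kb had a peak. The phosphatases with SH2 domains, Ptpn6 (SHP-1) and Ptpn11 (SHP-2, which promotes RAS-ERK signalling), had none either. Neither had Ptpn1 (PTP1B) and Ptpn2 (TC-PTP), the PEST family of Ptpn12, Ptpn18 and Ptpn22, or Ptpn5, Ptpn7, Ptpn20 and Ptpn23. With the list restricted to −log10 q of at least its median, 8.40, 0 of 17 Ptpn genes had a peak, beside 5.23% of all protein-coding genes.

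Among the receptors both members with a carbonic anhydrase domain, Ptprz1 and Ptprg, had a peak. They span 178 and 689 kb, and 23.0% of all genes over 100 kb had a peak. Ptprz1 encodes a receptor of neural and glial cells that binds pleiotrophin. Its peak at chromosome 6, 22825457 to 22825849, was the second strongest of the 13, with a pileup of 23 over 1.02 and 11.9-fold (7.71 to 17.6). It lay outside any listed gene, 49617 bp from the nearer end of Ptprz1, just inside the limit of 50 kb, and the end of the next protein-coding gene, Aass, was 246475 bp away. The first summit beyond the limit outside a member's span and nearest to that member was 96996 bp from Ptpn1, at 8.57-fold (5.11 to 13.6). With a limit of 10 kb Ptprz1 had no peak. The Ptprg peak was inside the gene at chromosome 14, 11664461 to 11664683, 110993 bp after the nearest listed start. It had a pileup of 16 over 1.34 and 7.26-fold (4.33 to 11.5).

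Ptprq, which encodes a receptor of the hair bundle of the inner ear, was the only member with 2 peaks. They lay inside the gene at chromosome 10, 107662397 to 107662679 and 107662855 to 107663059, with 175 bp between them. The first had a pileup of 14 over 0.984 and 7.56-fold (4.36 to 12.3), and the other a pileup of 11 over 1.07 and 5.79-fold (3.13 to 9.98). Their summits were 362 bp apart, and whether they form 1 enriched region was not tested. No peak was given to the LAR family (Ptprd, Ptprf and Ptprs), whose members bind synaptic and matrix partners, or to the homophilic adhesion receptors Ptprk, Ptprm, Ptprt and Ptpru. The other receptors without a peak were Ptpra, Ptprb, Ptprc, Ptpre, Ptprh, Ptprj, Ptprn, Ptprn2, Ptpro and Ptprr, beside Ptprcap. Ptprd spans 2271 kb, the longest of all members, and the nearest summit to it was 2707480 bp outside the gene.

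**Figure D3:**
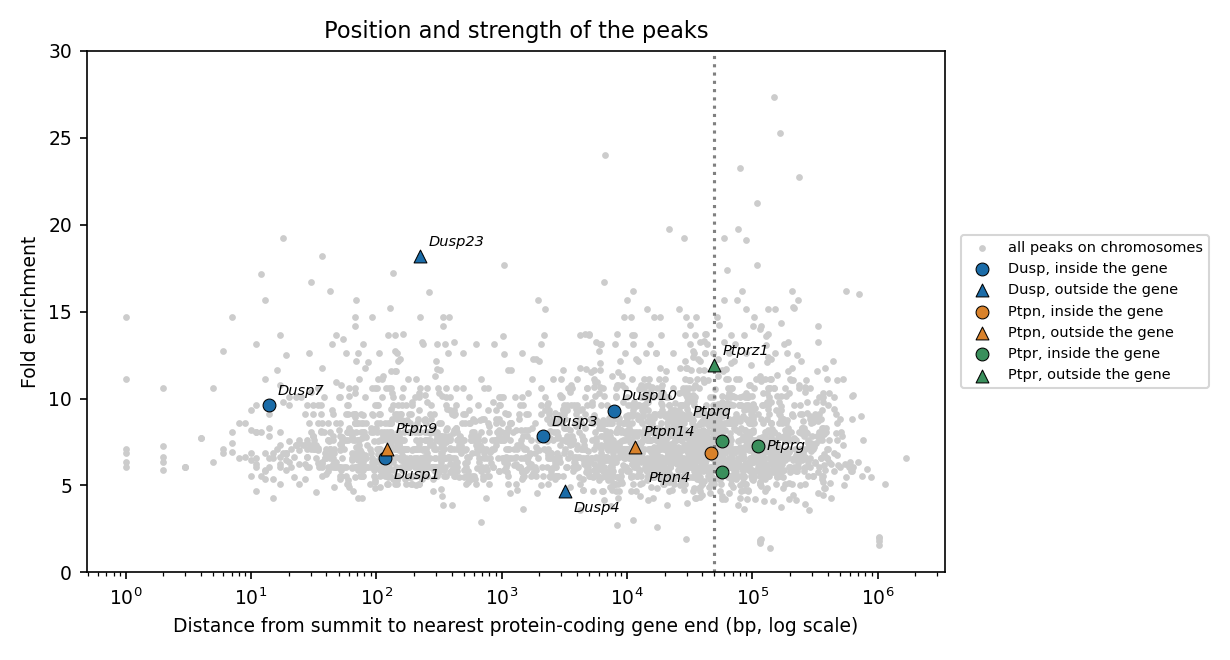
Fold enrichment against the distance from the summit to the nearest protein-coding gene end (bp, log scale) for all peaks on chromosomes (grey) and for the member peaks, as circles inside and triangles outside the gene; the dotted line marks 50 kb. Dusp peaks lie at 14 to 7820 bp, and the Ptpr peaks at 49617 to 111106 bp.

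Distances from summits to gene ends are given by family, and they depend on span length. A summit inside a short gene cannot lie far from an end, and median spans were 11.8 kb for Dusp and 151 kb for Ptpr genes. The 6 Dusp summits lay 14 to 7820 bp from a gene end, with 3 of 6 within 1000 bp, and 1 of 3 Ptpn summits and 0 of 4 Ptpr summits lay that close. For the 3 families together 4 of 13 summits (30.8%) lay within 1000 bp, beside 34.4% over all peaks given to a gene. A listed start site within 1000 bp of a summit was found for 4 of the 18 Dusp genes in the promoter table (Dusp1, Dusp3, Dusp7 and Dusp23), 1 of 15 Ptpn genes (Ptpn9) and 0 of 17 Ptpr genes. The background for that count was 4.89% of 17491 protein-coding genes in the table. These positions come from the same peaks as the rule and carry no test.

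Some members without a peak had a summit in their neighbourhood that was given to another gene. For 6 of the 50 a summit lay within 50 kb of the span: Dusp12 (6321 bp, given to Atf6), Ptprb (21555 bp, Kcnmb4), Dusp13 (24042 bp, Samd8), Ptpn5 (27297 bp, Tmem86a), Ptpn13 (31164 bp, Slc10a6) and Dusp16 (46333 bp, Borcs5). The folds of these 6 peaks ran from 6.47 to 8.59. Across the 50 genes the median distance to the nearest summit was 179 kb and the greatest 6147 kb, at Dusp21 on the X chromosome. Dusp9, the other member on X, was 3771614 bp from the nearest summit, and the whole X chromosome held 17 peaks.

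The kinases that these phosphatases oppose were counted from lists of the pathway. MAP kinases had a peak in 5 of 13 cases, led by Mapk6 (ERK3) at 11.1-fold (7.08 to 16.7), 73 bp from a gene end, and Mapk4 (ERK4) at 9.77-fold. Mapk14, which encodes p38 alpha, followed at 8.88-fold (5.52 to 13.6), Mapk10 (JNK3) at 8.33-fold and Mapk7 (ERK5) at 8.09-fold. Of the kinases upstream of them 3 of 20 had a peak: Map3k5 (ASK1) with 4 peaks up to 14.7-fold (9.92 to 21.0), Map2k7 at 7.03-fold and Map3k4 at 6.01-fold. Receptor tyrosine kinases, substrates of many tyrosine phosphatases, had 10 of 39, with Ror1 at 13.7-fold, Tek at 11.6-fold, Musk at 8.82-fold, Mertk at 8.60-fold and Alk at 7.84-fold the highest. Src family kinases and their regulators had 2 of 12, Pag1 at 7.84-fold and Cblb at 6.25-fold. A list of other phosphatases outside the symbol rule had 4 of 30, which were Mtmr3 at 11.1-fold, Eya4 at 7.06-fold, Ssh3 at 6.58-fold and Rngtt at 5.56-fold. Beside the 9.63% of all protein-coding genes these counts are descriptions, and the median spans of the lists ran from 23.2 kb for the MAP kinases to 69.8 kb for the upstream kinases.

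**Figure D4:**
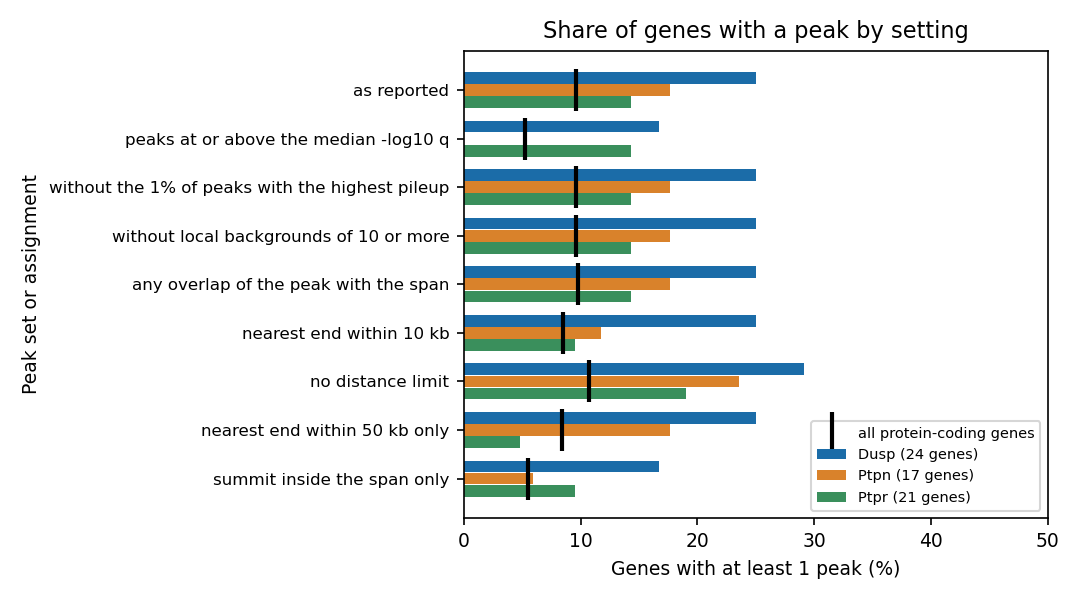
Share of genes with at least 1 peak (%) in each family (bars) and among all protein-coding genes (black ticks) as reported and under 8 other peak sets or assignments. Dusp bars lie between 4 and 7 of 24 genes, the Ptpn bar is at 0 with the stricter peak set (−log10 q at least the median), and the Ptpr bar falls to 1 of 21 genes when a summit inside the span earns no credit.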

How the data were processed

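The 2 libraries, ChIP with the GFP antibody and input DNA, were sequenced as single-end 50 bp tags and grouped by the labels. GRCm38, bcl2fastq 2.16, HISAT2 and MACS2 2.1.1 are named per the submitters' processing notes. MACS 2.1.1.20160309 called narrow peaks of ChIP over input at q below 0.01, keeping 1 tag per position, per the file headers. Pileup as deposited is coverage (a signal of unscaled ChIP fragments), the deposited fold enrichment is a ratio of pileup + 1 to local background + 1, and the input was scaled to the ChIP depth (0.5199, from the tags per the file headers). Significance was deposited as −log10 of a p-value and of a q-value, as the caller gave them.

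The local background was recovered from pileup and fold. Genes, starts and promoters came from RefSeq tables for GRCm38.p6; genes with coordinates on scaffolds were left out. Exons were not used here. Distances to starts use only the starts that the promoter table lists, and Dusp4 and Ptprq are not in it. Python 3.11.15, pandas 2.3.3 and scipy 1.17.1 were used, and the assignment was tested on simulated data. Every member with a peak is named, and up to 5 genes of each other list by fold. The genes near members without a peak were named after their values were seen, and the motifs and start-site counts were chosen then too. The members and lists were chosen with earlier results of these data known. Alternatives were stricter peak sets and other assignments.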

Additional observations from a re-analysis of the deposited data

How the results depend on the processing

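No paired analysis was possible because each group had 1 library. Of 74 recomputed values (gene counts, peak counts and the highest fold of each family under 8 alternatives, and peak counts with summits within 1000 bp counted once, which was chosen after seeing the data), 64 stayed within 1.5 times the reported count or within the interval of the reported fold. With the peaks whose −log10 q was at least the median, 0 Ptpn genes and 0 Ptpn peaks were left, beside 5.23% of all protein-coding genes, and no highest fold could be given. With summits inside the span only, 1 Ptpn gene (Ptpn4) and 1 Ptpn peak were left, the highest Dusp fold was 9.61 (Dusp7, as Dusp23 was lost) and the highest Ptpr fold 7.56. The last value was also that of a 10 kb limit, which dropped Ptprz1. With the nearest end within 50 kb only, 1 Ptpr gene and 1 Ptpr peak were left (Ptprz1). Without a distance limit the Dusp genes had 10 peaks, with those beyond the limit nearest to Dusp6 and Dusp10. All member peaks but that of Dusp23 rest on 11 to 23 fragments, so their folds are known to within wide counting intervals.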

Other observations

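Beyond the 50 kb limit, 6 summits outside a member's span had that member's end as the nearest protein-coding end. Dusp6, the feedback phosphatase of FGF-ERK signalling, was nearest to a pair of them at chromosome 10, 99383162 to 99383590 and 99383971 to 99384142, with summits 723 bp apart. Their folds were 11.1 (7.08 to 16.7) and 6.07 (3.28 to 10.5), and the nearer was 115828 bp from the gene. Dusp10, which had a peak inside the gene, was nearest to a further pair at 168919 and 214485 bp, with folds of 8.82 (5.35 to 13.8) and 7.72 (4.53 to 12.4). The others were the summit at 96996 bp from Ptpn1 given above and a peak of 9.07-fold (5.50 to 14.2) at 332779 bp from Ptprc. Which genes these regions act on, if any, was not tested.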
